A study of Bos grunniens x Bos taurus and Bos grunniens with 12 samples.

Results

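The table of milk exosome miRNAs listed 2263 entries, and 77 of them carried names beginning with chi, the miRBase prefix for the goat (Capra hircus). Described here are the 63 goat-named entries with a value above 0 in at least 2 of the 12 libraries, leaving out 2 entries by name. The other 12 goat-named entries were above 0 in 1 library. Small RNA was sequenced from exosomes, the small vesicles released into milk, with 3 libraries from each of 4 groups: Jeryak milk in December, yak milk in December, Jeryak milk in June and yak milk in June. The Jeryak, labelled cattle-yak, is the cross of the yak with Jersey cattle, and no animal received a treatment. A goat name therefore says only which precursor a yak or Jeryak read matched, because the authors aligned reads to cattle precursors (prefix bta) and then took what was left to other species, with 1 mismatch and changes at the ends allowed. Each value is a norm value, the number of copies of the sequence multiplied by 1 correction factor per library.

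A miRNA hairpin is cut into a short duplex, and 1 arm of it (the guide) is usually kept by the Argonaute protein while the other (the passenger arm) is mostly degraded. The arms are named 5p and 3p after the end of the hairpin they come from, and bases 2 to 8 of an arm, the seed, choose the mRNAs it can pair with. Many cattle names in miRBase cover only the arm that was described for cattle. By the paper's account, reads from the opposite arm of a cattle precursor became candidate arms of that precursor, before other species were searched. Opposite arms of cattle-named miRNAs nevertheless also stood under goat names here, and why they did was not tested.

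Of the 63 goat-named entries, 45 were 3p arms, 16 were 5p arms, and 2 (miR-218 and miR-2284b) had no arm in their names. The read equalled the goat sequence in 29 entries. In 24 entries it differed at an end, written in the name as L or R with the bases gained or lost on the left or right, and in 10 it held a substitution. A substitution is given as the goat base, the position counted from 1 at the 5′ end of the read, and the base of the read. For 9 of the 10 the read held the stated base there, and for miR-18b-3p, whose positions are not counted that way, no substitution is given. In 5 of the 10 it fell on the last base, and in 1, the G8A change of miR-30f-3p, it fell in the seed. The entries had 61 miRNA names and 56 seeds.

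The sequences that carry the results are given from 5′ to 3′ in the DNA letters of the table, with the seed in capitals. The 4 entries of the miR-30 family come first, since 3 of them share a seed and the other, miR-30f-3p, does not.
chi-miR-30a-3p: cTTTCAGTcggatgtttgcag
chi-miR-30e-3p_R+1: cTTTCAGTcggatgtttacagt
chi-miR-30d-3p_L+1: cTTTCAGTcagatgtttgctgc
chi-miR-30f-3p_R-2_1ss8GA: cTGGGAGAaggctgtttact

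The 3 entries below share the seed TATACAA, and miR-98-3p is the shortest of all 63.
chi-let-7b-3p_R-1: cTATACAAcctactgccttcc
chi-let-7f-3p_R-1: cTATACAAtctattgccttcc
chi-miR-98-3p_R-3: cTATACAActtactacttt

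The next 3 goat-named arms were above the cattle-named arm of the same hairpin in every library, and each is followed by that cattle-named arm.
chi-miR-340-5p: tTATAAAGcaatgagactgatt
bta-miR-340_R-1: tCCGTCTCagttactttatagc
chi-miR-27a-3p: tTCACAGTggctaagttccg
bta-miR-27a-5p_R-1: aGGGCTTAgctgcttgtgagc
chi-miR-361-3p: tCCCCCAGgtgtgattctgatt
bta-miR-361: tTATCAGAatctccaggggtac

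The remaining sequences are those of goat-named entries that passed the test between months, with the cattle-named miR-148a as the other arm of miR-148a-5p.
chi-miR-148a-5p: aAAGTTCTgagacactccgact
bta-miR-148a: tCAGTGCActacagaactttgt
chi-miR-140-5p: cAGTGGTTttaccctatggtag
chi-miR-532-3p_R+1: cCTCCCACacccaaggcttgca
chi-miR-15b-3p: cGAATCATtatttgctgctct
chi-let-7g-3p_1ss22CT: cTGTACAGgccactgccttgct
chi-miR-191-3p_L+1R-1_1ss21CT: gCTGCGCTtggatttcgttct

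Besides TTTCAGT and TATACAA, 3 more seeds were shared, each by 2 entries: AAGTTCT by miR-148a-5p and miR-148b-5p, TTATCAG by miR-374a-3p and miR-374b-3p, and CTGCCCT by miR-18a-3p and miR-18b-3p. In all, 12 of the 63 entries shared a seed with another. For 4 entries (miR-27a-3p, miR-27a-5p, miR-92a-3p and miR-218) the same sequence was also listed under a cattle name with identical values in all 12 libraries, so these 4 are read here as the same measurement listed again. The table gave no genome positions for these entries that could be set against a reference, and none are given here.

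The goat-named entries had the length of mature miRNAs. Their median was 22 nt and their range 19 to 24 nt, from miR-98-3p to miR-92a-3p. Of the 63, 56 (88.9%) measured 21 to 23 nt, against 428 of 583 cattle-named entries (73.4%) and 135 of 1154 predicted candidates (11.7%), which are sequences that matched no precursor in miRBase. All 16 of the 5p arms and 39 of the 45 3p arms lay in that range. The first base was C in 25 of the 45 3p arms and A in 9 of the 16 5p arms. The shares of 21 to 23 nt above count entries. By norm value, the goat-named entries held 25.98% at 21 nt, 49.7% at 22 nt and 0.647% at 23 nt. The cattle-named entries held 12.5%, 52.8% and 11.1% at these lengths. The higher share of goat-named than cattle-named entries in that range is therefore one of entry counts, not of norm value. Lengths belong to the entry and not to a group, so no test was made.

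The label of the samples was checked with 10 cattle-named miRNAs known from milk, among them miR-148a, miR-30a-5p and miR-200c. All 10 were found, none was below 725 in any library, and together they made up 34.3 to 63.1% of the summed norm value. The libraries differed in the smallest step they could show. The most common value above 0 in a library, called its step here, was 0.761 to 1.35 in December Jeryak, 4.38 to 11.2 in December yak, 9.24 to 12.3 in June Jeryak and 5.10 to 16.5 in June yak libraries, and 7.45 to 15.2% of the entries above 0 lay under it. The highest of these values, 16.5, is called the common floor below. Counts were not in the table, so no counting interval is given. The labels do not tie the libraries to animals. The paper describes milk of several lactating yaks and Jeryaks, but the sources used here do not say which animal gave which library or whether the same ones were milked in both months. The p-values measure the spread between these libraries, and a batch of library making cannot be told apart from the month.

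Detection was highest in the libraries with the smallest steps. Above 0 were 55, 63 and 49 of the 63 entries in the December Jeryak libraries, 35, 26 and 27 in the December yak libraries, 28, 36 and 26 in the June Jeryak libraries, and 24, 38 and 24 in the June yak libraries. The December Jeryak libraries lay above all 9 others. At the common floor the means were 24.3 ± 3.51 in December Jeryak, 21.7 ± 1.15 in December yak, 23.7 ± 4.73 in June Jeryak and 21.3 ± 2.08 in June yak (SD, n = 3 each), and the groups overlapped. The entries were chosen by values above 0, so these counts are a description. Values above 0 in all 12 libraries were found for 15 entries, in 6 to 11 libraries for 16, and in 2 to 5 libraries for 32.

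**Figure D1:**
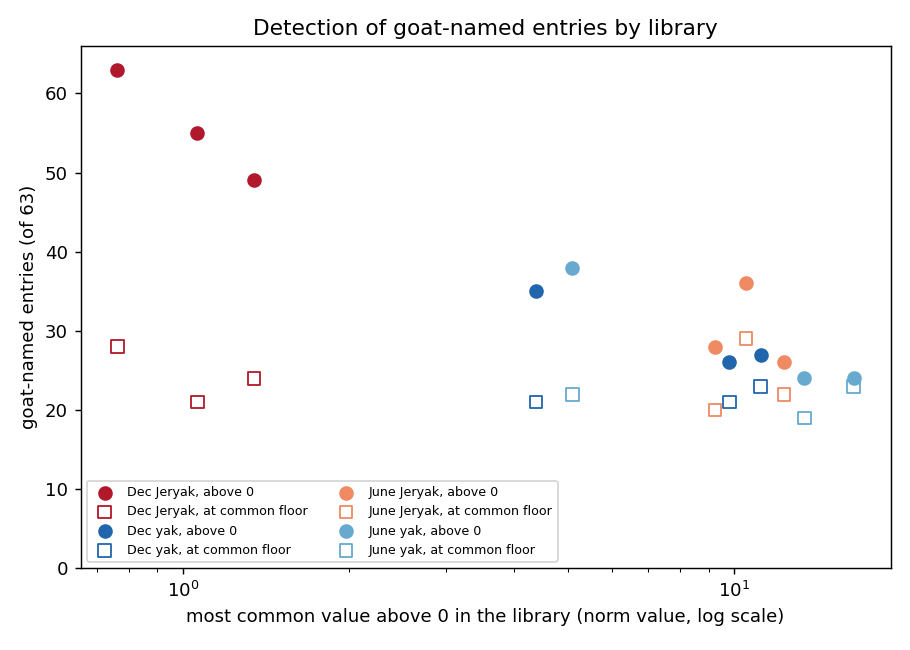
Number of goat-named entries (of 63) above 0 (filled circles) and at or above the common floor (open squares) in each library, against the most common value above 0 in that library (log scale, norm value). The 3 December Jeryak libraries sit at the left with 49 to 63 entries above 0, and the squares of all 4 groups overlap.

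The choice of at least 2 libraries fell among entries seen in few libraries. Just inside it were 9 entries above 0 in exactly 2 libraries, and for 8 of these both were December Jeryak libraries. The highest of the 9 were miR-188-3p, with 2.41 in a December Jeryak and 16.5 in a June yak library, miR-3432-3p, with 0.886 and 9.01 in December Jeryak libraries, and miR-15a-3p, with 3.23 and 6.85 in December Jeryak libraries. Just outside it were the 12 entries above 0 in 1 library, 8 of them in the same December Jeryak library. The highest were miR-411a-3p with 16.5, miR-326-5p with 15.2 and miR-128-5p with 12.6.

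The 63 entries made up a small part of the exosomal signal in every group. They held 1.23 ± 0.0827% of the summed norm value in December Jeryak, 1.07 ± 0.0839% in December yak, 1.08 ± 0.0784% in June Jeryak and 1.23 ± 0.124% in June yak libraries (SD, n = 3 each). Without the 4 entries also listed under a cattle name, the shares were 0.907 ± 0.0758%, 0.863 ± 0.0460%, 0.991 ± 0.0742% and 1.10 ± 0.117% in this order. The December Jeryak mean then lay below the June Jeryak mean, and the libraries of these 2 groups overlapped. Cattle-named entries held 96.2 ± 0.722%, 89.7 ± 3.28%, 86.3 ± 3.04% and 87.6 ± 3.21% in the same 4 groups. The 3p arms held 0.897 ± 0.0909% in December Jeryak, 0.837 ± 0.0948% in December yak, 0.725 ± 0.0252% in June Jeryak and 0.849 ± 0.115% in June yak libraries. The 5p arms held 0.328 ± 0.0370%, 0.234 ± 0.0151%, 0.351 ± 0.0640% and 0.381 ± 0.136% in these groups. In milk, fewer cells shedding exosomes and less RNA per cell cannot be told apart.

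A few entries carried most of that share. The mean over the 12 libraries was at least 100 for 13 entries and under 10 for 34, and the 8 highest held 78.7 to 91.3% of the summed value of the 63. By mean these were miR-361-3p (1382), miR-30a-3p (1340), miR-27a-3p (1172), miR-340-5p (1008), miR-148a-5p (621), miR-106b-3p (404), miR-1307-5p (395) and let-7d-3p (254). The miR-361-3p values were 1102, 1080 and 1099 in December Jeryak, 1140, 1255 and 1137 in December yak, 963, 1227 and 1710 in June Jeryak, and 2155, 1468 and 2246 in June yak libraries. Those of miR-30a-3p were 999, 995 and 935 in December Jeryak, 1700, 997 and 1349 in December yak, 1521, 1078 and 1468 in June Jeryak, and 2010, 1911 and 1114 in June yak libraries. All 3 June yak libraries lay above the December yak libraries for miR-361-3p, while miR-30a-3p overlapped between the months in yak. In the limma fit described below, the miR-361-3p change in yak did not pass (log2 fold change -0.71, December over June, adjusted p = 0.082). Neighbours in this order, such as miR-361-3p and miR-30a-3p, overlapped between libraries.

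**Figure D2:**
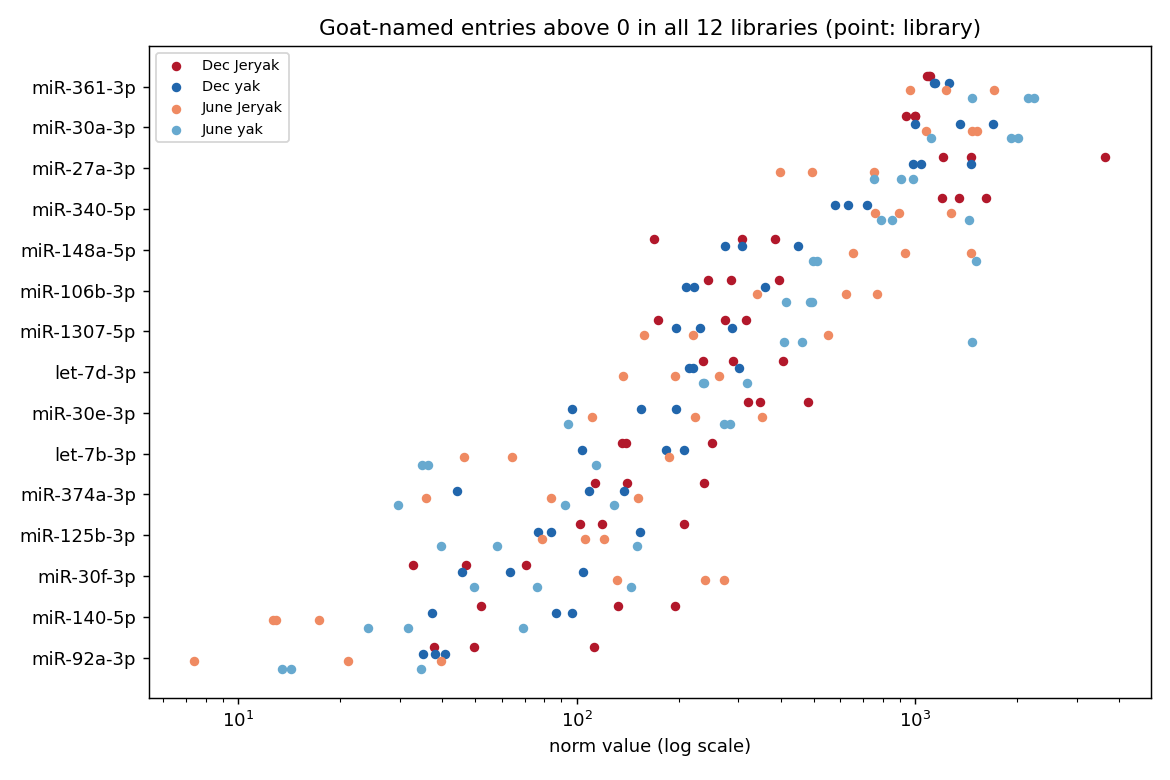
Norm value (log scale) of the 15 goat-named entries above 0 in all 12 libraries, 1 point per library, ordered by mean and coloured by group. For miR-140-5p the December Jeryak points (51.9 to 195) lie to the right of the June Jeryak points (12.6 to 17.3), and for miR-148a-5p (169 to 385 against 654.2 to 1458) they lie to the left.

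Most goat-named arms were the less abundant arm of their hairpin. For 57 of the 61 entries with an arm in the name, the table also held a cattle-named entry from the other arm, and the mean of the goat-named arm was below that of its partner in 50 and above it in 7. It was below for 36 of 41 3p arms and 14 of 16 5p arms. The goat-named arm was below its partner in all 12 libraries in 33 pairs. The median ratio of the cattle-named to the goat-named arm was 29.7, and the goat-named arm made up under 10% of both arms together in 38 pairs and under 1% in 18. The miR-27a hairpin is in these counts under both of its goat-named arms. Counted once, under miR-27a-3p, it left 49 of 56 pairs below their partner, with a median ratio of 34.96. When the sequences were folded against each other, the arms paired over 12 to 20 bases with a median of 17, and 54 of the 57 pairs had at least 14. The 4 entries with no such partner in the table were miR-92a-3p, miR-409-3p, miR-542-3p and miR-3432-3p.

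Among entries with a mean of at least 10, the lowest shares were those of miR-30d-3p, miR-92a-5p and miR-25-5p. The mean log2 ratio of goat-named to cattle-named arm was -9.83 for miR-30d-3p, -9.35 for miR-92a-5p and -9.16 for miR-25-5p. The guides opposite them, miR-30d, miR-92a and miR-25, had means of 11864, 4894 and 2834. The opposite arms of the strongest milk miRNAs had higher levels in spite of small shares. The 1340 of miR-30a-3p stood beside 101193 for bta-miR-30a-5p, and the 621 of miR-148a-5p beside 73175 for bta-miR-148a. The goat-named arm was 1.31% of both arms for miR-30a and 0.842% for miR-148a.

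In 3 pairs the goat-named arm was the higher one in all 12 libraries. For miR-27a the same 3p sequence was also listed under a cattle name, so that pair compares arms and not names. The mean of miR-340-5p was 94.0 times that of its cattle-named 3p arm, which was listed at 0 in all 3 June yak libraries. This 3p arm had a mean of 10.7, under the common floor, so the size of the ratio is not firm. The mean log2 ratio was 7.37, and 5.76 with 10 instead of 1 added to each value. The mean of miR-27a-3p, which is the guide arm in human and mouse, was 29.1 times that of miR-27a-5p. That of miR-361-3p was 4.02 times that of bta-miR-361. Its share of both arms was 69.5% in December Jeryak, 78.5% in December yak, 80.0% in June Jeryak and 88.8% in June yak. In 4 further pairs the goat-named arm was higher by mean only: miR-1307-5p (in 9 of 12 libraries), miR-324-3p (in 7), miR-136-3p (in 5) and miR-18b-3p (in 1). The means of both arms lay under the common floor for miR-136 (2.87 against 0.510) and miR-18b (0.284 against 0.202). For these pairs it is not firm which arm was higher.

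**Figure D3:**
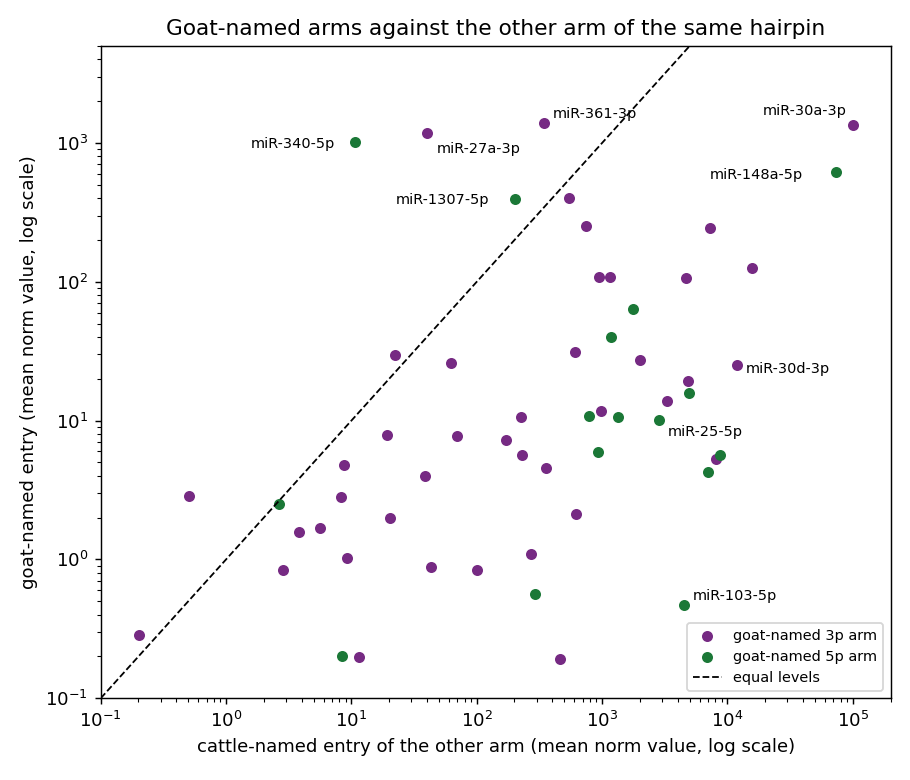
Mean norm value over 12 libraries of each goat-named arm (vertical, log scale) against the cattle-named arm of the same hairpin (horizontal, log scale), 57 pairs, with 3p arms in purple and 5p arms in green. Points under the dashed line of equal levels are the 50 pairs in which the cattle-named arm was higher, and miR-340-5p, miR-27a-3p and miR-361-3p stand well above it.

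To compare breeds and months, log2(norm value + 1) was fitted with limma over all entries that reached 10 in at least 3 libraries, and an entry passed at an adjusted p under 0.05. Of the 63 goat-named entries, 36 (26 3p and 10 5p arms) entered among 620 entries, and 27 did not. Between breeds in June (Jeryak over yak) none of the 36 passed, 3 had an unadjusted p under 0.05, and 5.0% of all entries tested passed. In December (Jeryak over yak) none passed, 6 had an unadjusted p under 0.05, and 5.97% of all entries passed. For the difference of the breed contrast between months none passed, 6 had an unadjusted p under 0.05, and 5.48% of all entries passed. In none of these comparisons did the goat-named entries exceed the background of all entries.

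Between months more entries passed. In Jeryak (December over June) 6 of the 36 rose and 2 fell, against 11.9% of all entries higher and 28.9% lower, and 19.9% and 5.58% of the 251 cattle-named entries. Of the 6 that rose, miR-27a-3p is counted on both sides, because the same values were also listed under a cattle name. The same holds for miR-27a-5p and miR-92a-3p, which were tested and did not pass. With values scaled by library totals the goat-named entries split into 6 higher and 4 lower, and with all values raised to the common floor into 3 higher and 5 lower. Without 1 library the count that passed in Jeryak was 5 to 12, and it was 5 without any 1 of the December Jeryak libraries. In yak (December over June) 1 rose and 2 fell, against 11.5% of all entries higher and 22.6% lower, and 14.3% and 7.17% of the cattle-named entries, and the count was 5 when June Jeryak replicate 1 was left out and 6 when June yak replicate 2 was. The median log2 fold change of the 36 was 0.93 in Jeryak, where it was -0.61 over all 620 entries and 0.56 over cattle-named entries. In yak it was 0.16 for the 36, -0.59 over all entries and 0.20 over cattle-named entries, and scaling by totals moved the median over all entries in yak to -0.35. With all values raised to the common floor the median over all entries was -0.24 in Jeryak and -0.13 in yak.

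The entry with the smallest p in Jeryak was miR-140-5p, the arm of the hairpin that is best known from cartilage. Its values were 51.9, 195 and 132.6 in December Jeryak and 12.9, 12.6 and 17.3 in June Jeryak libraries, and the months did not overlap. The log2 fold change was 2.88 (SE 0.66, adjusted p = 0.0039). In yak the values were 86.8, 96.4 and 37.3 in December and 69.3, 31.6 and 24.1 in June, which overlapped (log2 fold change 0.84, adjusted p = 0.34). The difference between the breeds in this change did not pass (2.04, SE 0.93, adjusted p = 0.27). The other arm, bta-miR-140, had a log2 fold change of 0.85 in Jeryak (SE 0.34, adjusted p = 0.063).

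The miR-27a-3p arm, a regulator of fat cell formation in mouse and human, also rose in Jeryak. Its values were 1463, 3629 and 1209 in December Jeryak and 752, 399 and 493.5 in June Jeryak libraries, with the 3 December libraries above the 3 June libraries. The log2 fold change was 1.81 (SE 0.42, adjusted p = 0.0040), against 0.38 (adjusted p = 0.49) in yak, where December had 1454, 987 and 1040 and June 907, 982 and 753. The highest June yak library, at 982, lay just under the lowest December yak library, at 987. The difference between the breeds was 1.43 (SE 0.59, adjusted p = 0.25). The other arm, miR-27a-5p, had a log2 fold change of 3.47 in Jeryak (SE 1.45, adjusted p = 0.073).

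The 5p arm of miR-148a, whose 3p arm is among the most abundant miRNAs of milk, fell in Jeryak. Its values were 307, 169 and 385 in December Jeryak and 654.2, 931 and 1458 in June Jeryak libraries, without overlap, and the log2 fold change was -1.82 (SE 0.50, adjusted p = 0.011). In yak December had 274, 451.1 and 308 and June 512, 497 and 1513. The yak months did not overlap either, but the change of -1.11 did not pass (adjusted p = 0.10). The 3p arm, bta-miR-148a, had a log2 fold change of -0.38 (SE 0.26, adjusted p = 0.27) in Jeryak, and miR-148a-5p was 0.415% of both arms in December Jeryak and 1.15% in June Jeryak.

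The 3p arm of miR-30f fell in Jeryak as well. Its values were 70.7, 32.7 and 46.9 in December Jeryak and 131, 272 and 239 in June Jeryak libraries, without overlap (log2 fold change -2.07, SE 0.56, adjusted p = 0.0091). In yak it had 63.5, 45.8 and 104 in December and 49.5, 76.4 and 144.9 in June, which overlapped. The other arm, bta-miR-30f, had a log2 fold change of 0.23 (adjusted p = 0.60) in Jeryak. The miR-30f-3p share of both arms was 1.25% in December Jeryak, 1.10% in December yak, 5.70% in June Jeryak and 1.86% in June yak. These 4 entries (miR-140-5p, miR-27a-3p, miR-148a-5p and miR-30f-3p) passed under all 18 alternative settings.

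The other 4 calls in Jeryak involved June libraries listed at 0. The 3p arm of miR-532, with 39.4, 56.1 and 45.8 in December Jeryak and 20.3, 14.7 and 0 in June Jeryak libraries, rose (log2 fold change 2.78, SE 0.97, adjusted p = 0.036). The months did not overlap, but without June Jeryak replicate 3, the library at 0, the change was 1.38 (adjusted p = 0.081), and without any 1 of the December Jeryak libraries the adjusted p was 0.073 to 0.10. With all values raised to the common floor miR-532-3p kept its call (1.35, adjusted p = 0.011). The let-7f-3p arm had 16.1, 19.2 and 25.9 in December Jeryak and 0, 10.5 and 0 in June Jeryak libraries (3.22, SE 1.15, adjusted p = 0.040). The months did not overlap, but it missed the threshold in 11 of 18 alternatives. Among these were the fits without any 1 of the December Jeryak libraries, December yak replicates 1 and 2 and June Jeryak replicates 1 and 3, with an adjusted p of 0.052 to 0.12. The miR-15b-3p arm had 7.09, 50.8 and 9.97 in December Jeryak and was listed at 0 in all 3 June Jeryak libraries (adjusted p = 0.024, and 0.055 without June Jeryak replicate 3). Without December Jeryak replicate 2, the library at 50.8, miR-15b-3p fell short of the minimum level and was not tested. In Jeryak the other arms changed by 0.59 for bta-miR-532, 1.66 for bta-let-7f and 1.63 for bta-miR-15b on the log2 scale. None of these other arms passed (adjusted p = 0.17, 0.073 and 0.36). The let-7g-3p arm had 10.5, 5.71 and 7.28 in December Jeryak and was listed at 0 in all 6 June libraries of both breeds (adjusted p = 0.036). Without December Jeryak replicate 2 or 3 or any 1 of the June Jeryak libraries its adjusted p was 0.059 to 0.081, and without December Jeryak replicate 1 it was not tested. Apart from the 50.8 of miR-15b-3p, the December Jeryak values of miR-15b-3p and let-7g-3p lay under 12.3, the highest step of the June Jeryak libraries. With all values raised to the common floor miR-15b-3p (adjusted p = 0.27), let-7g-3p (adjusted p = 1.0) and let-7f-3p (adjusted p = 0.64) no longer passed.

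**Figure D4:**
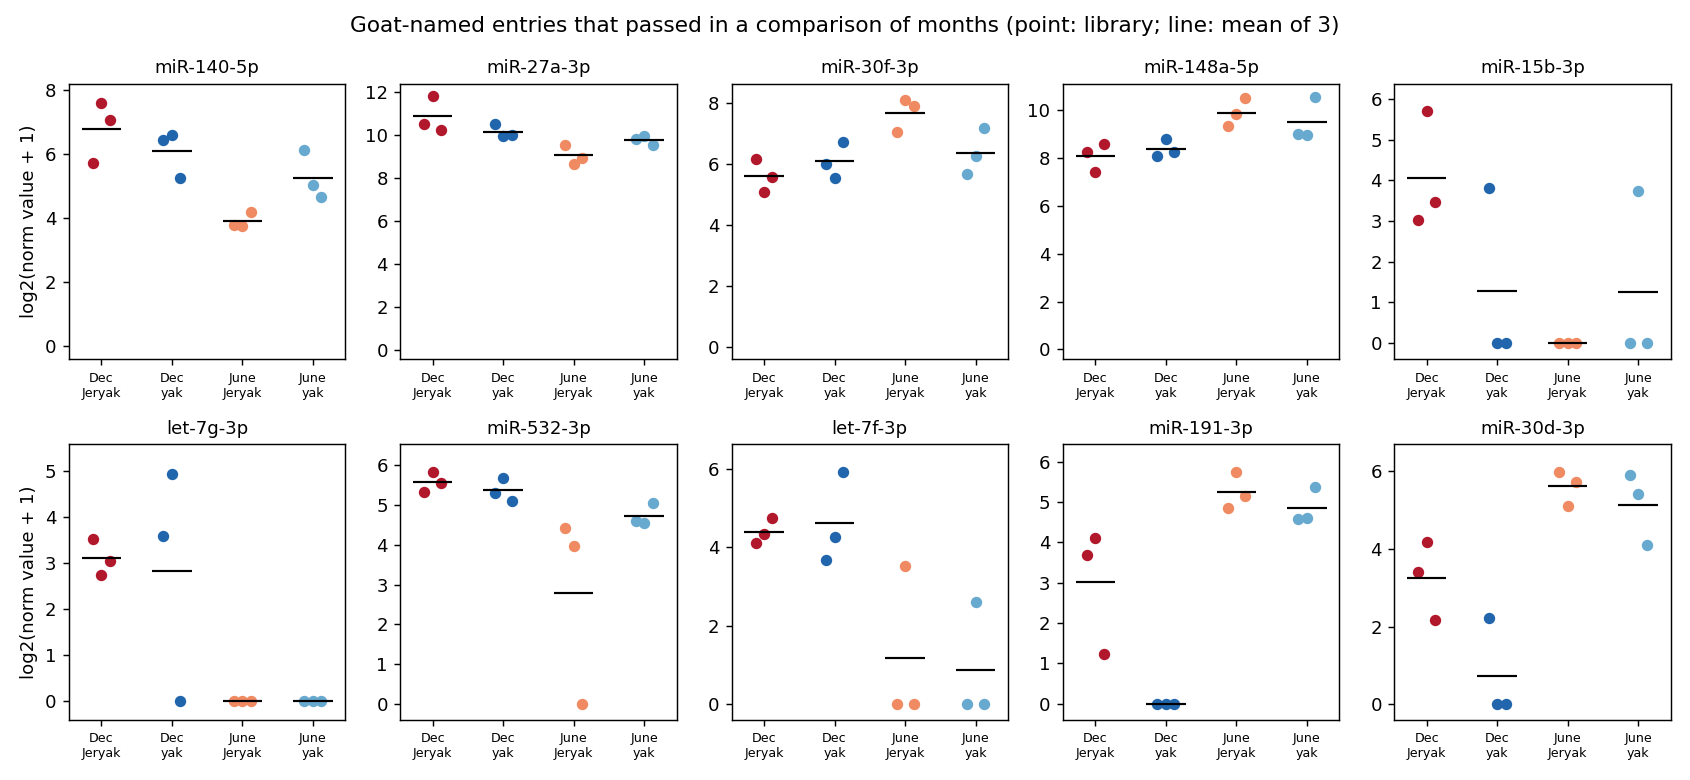
log2(norm value + 1) by library for the 10 goat-named entries that passed in December over June in Jeryak or in yak, with 3 points per group and a line at their mean. The months separate in Jeryak for miR-140-5p, miR-27a-3p, miR-30f-3p and miR-148a-5p, while miR-15b-3p, let-7g-3p and miR-191-3p include a group listed at 0 in all 3 libraries.

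In yak the 2 entries that fell were passenger arms of abundant guides. The miR-30d-3p arm had 3.65, 0 and 0 in December yak and 59.4, 41.8 and 16.1 in June yak libraries, without overlap (log2 fold change -4.40, SE 0.90, adjusted p = 0.0017). The miR-191-3p arm was listed at 0 in all 3 December yak libraries and had 23.1, 23.4 and 40.2 in June yak libraries (adjusted p = 6.3e-04). Both were also lower in December in Jeryak, where they did not pass. There miR-30d-3p had 9.57, 17.3 and 3.50 in December and 62.8, 33.7 and 51.8 in June (-2.36, SE 0.90, adjusted p = 0.051), and miR-191-3p had 11.9, 16.4 and 1.35 in December and 27.7, 52.6 and 34.5 in June (-2.23, SE 0.87, adjusted p = 0.055). The groups did not overlap in either breed for either entry. In Jeryak miR-30d-3p passed in 10 of 18 alternatives and miR-191-3p in 7, among them the common floor (adjusted p = 0.027 for miR-30d-3p and 0.014 for miR-191-3p). The December yak steps were 4.38 to 11.2, and with values raised to the common floor the adjusted p in yak was 0.12 for miR-30d-3p and 0.090 for miR-191-3p.

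The guides opposite them did not pass. The log2 fold change in yak was -0.31 (adjusted p = 0.33) for bta-miR-30d and -0.55 (adjusted p = 0.24) for bta-miR-191. The share of miR-30d-3p in both arms was 0.0895% in December Jeryak, 0.0107% in December yak, 0.460% in June Jeryak and 0.277% in June yak. The 1 entry that rose in yak was let-7f-3p, with 11.7, 17.98 and 59.6 in December yak and 0, 5.10 and 0 in June yak libraries (3.74, SE 1.15, adjusted p = 0.024). The months did not overlap. Without December yak replicate 3, the library at 59.6, its adjusted p was 0.11, without December yak replicate 2 or June yak replicate 1 or 3 it was 0.054 to 0.074, and it missed the threshold in 7 of 18 alternatives.

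Over all hairpins with both arms tested and no group listed at 0, and with the miR-27a hairpin counted once, the goat-named arm and its partner had fold changes of the same sign in 15 of 30 pairs in Jeryak and in 19 of 26 pairs in yak. In Jeryak 6 goat-named arms and 6 partners passed, and in yak 2 and 2, and in none of these pairs did both arms pass. The full set of 34 tested pairs includes those with a group listed at 0 and has the miR-27a hairpin under both of its arms. Among these 34 both arms passed in 1, let-7g in Jeryak, where bta-let-7g rose by 0.92 on the log2 scale (SE 0.28, adjusted p = 0.017). The goat-named let-7g-3p arm entered the test only through December libraries. The difference between the arms of a pair was not tested, and a passing arm beside a partner that misses the threshold is not shown to differ from it. Each comparison of months shares its libraries with the breed comparisons.

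**Figure D5:**
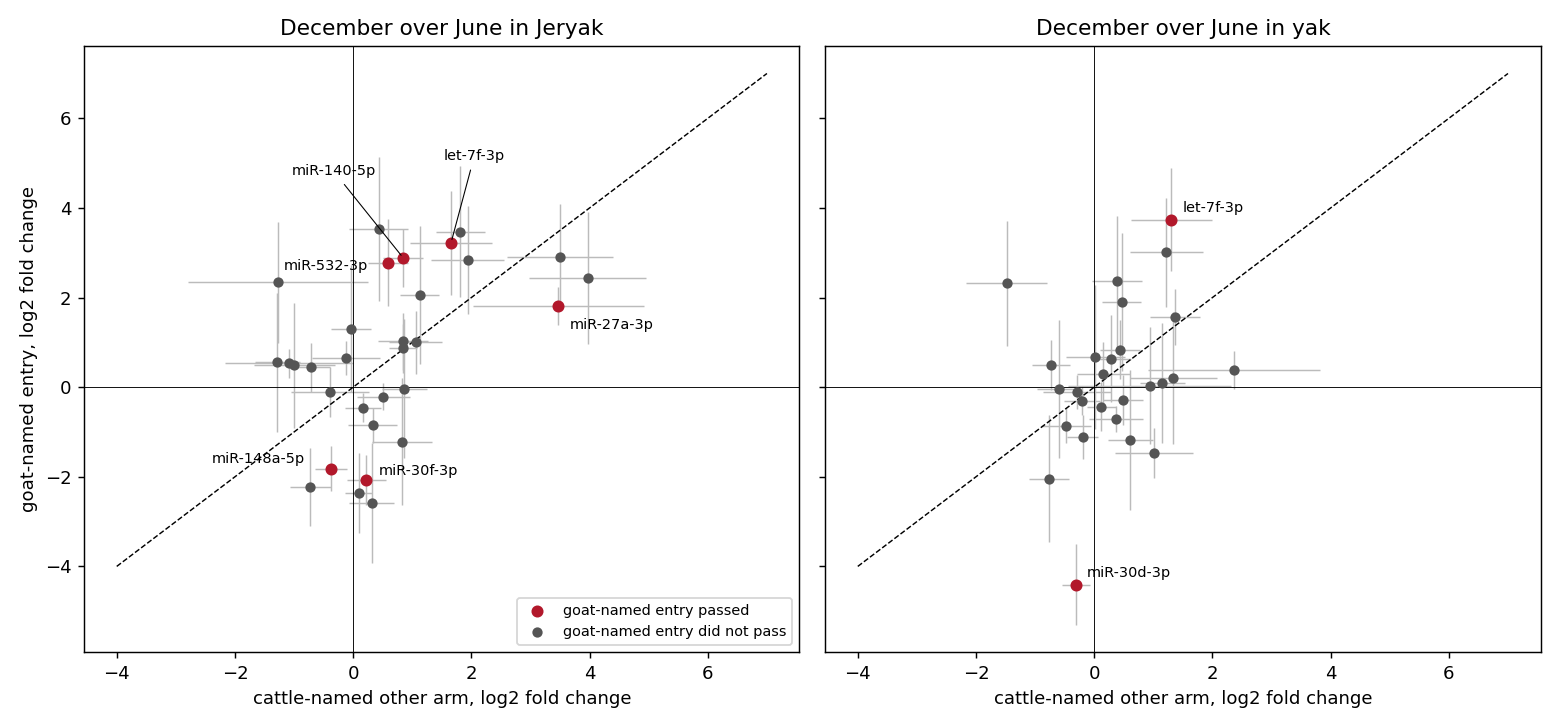
log2 fold change (December over June) of each goat-named arm (vertical) against its cattle-named partner (horizontal), with SE bars, in Jeryak (left, 31 pairs) and yak (right, 27 pairs), the miR-27a hairpin shown under both of its arms, with equal change on the dashed line and entries that passed in red. In Jeryak miR-148a-5p (-1.82 against -0.38) and miR-30f-3p (-2.07 against 0.23) lie below it, and in yak miR-30d-3p (-4.40 against -0.31) does. Both arms were higher in December in Jeryak for miR-140-5p (2.88 against 0.85) and miR-27a-3p (1.81 against 3.47).

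Between breeds in June, the smallest p belonged to miR-92a-5p and, among entries lower in Jeryak, to miR-1307-5p. The miR-92a-5p arm, from the miR-17–92 cluster and its relatives known for control of cell growth, had 29.6, 54.7 and 49.3 in June Jeryak and 16.5, 0 and 0 in June yak libraries. The log2 fold change was 4.09 (SE 1.34, adjusted p = 0.11). The breeds did not overlap, and the adjusted p was 0.046 with a pseudocount of 10, 0.0083 with values raised to the common floor and 0.019 without June yak replicate 1, the only June yak library above 0. The miR-1307-5p arm had 220, 158 and 550 in June Jeryak and 409.2, 464 and 1465 in June yak libraries, which overlapped (-1.28, SE 0.56, adjusted p = 0.22).

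In December the smallest p belonged to miR-16b-3p and, among entries lower in Jeryak, to miR-30a-3p. The miR-16b-3p arm had 12.4, 32.6 and 17.5 in December Jeryak and was listed at 0 in all 3 December yak libraries (adjusted p = 0.0501), and it passed in 8 of 18 alternatives, among them those without any 1 of the June Jeryak libraries or June yak replicate 2 or 3 (adjusted p = 0.011 to 0.0496). Without any 1 of the December libraries its adjusted p was 0.12 to 0.20, and with values raised to the common floor it was 0.64. The miR-30a-3p values in December, given above, overlapped between Jeryak and yak (-0.43, SE 0.33, adjusted p = 0.66). The miR-340-5p arm had 1200, 1618 and 1341 in December Jeryak and 721, 633 and 578 in December yak libraries, without overlap (1.10, SE 0.33, adjusted p = 0.067). It passed in 3 of 18 alternatives, with these groups alone in the fit (adjusted p = 0.016), with values raised to the common floor (0.0499) and without June yak replicate 1 (0.045). In June it had 1275, 757.9 and 893 in Jeryak and 1436, 853 and 792 in yak, which overlapped. The difference of the breed contrast between months was 1.16 (SE 0.47, adjusted p = 0.24) for miR-340-5p and -1.79 (SE 0.79, adjusted p = 0.27) for miR-30f-3p, the smallest p in each direction.

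By family, the let-7 and miR-98 group, whose 5p arms regulate developmental timing, had 7 goat-named entries, all 3p arms, of which 5 were tested. In Jeryak 2 of the 5 rose between months (let-7f-3p and let-7g-3p), against 11.9% of all entries and 19.9% of cattle-named entries. In yak 1 rose (let-7f-3p), against 11.5% and 14.3%. None of these calls held with values raised to the common floor, and let-7g-3p entered the test only through December libraries. The highest of the family, let-7d-3p, had 235, 406 and 289 in December Jeryak and 137, 263 and 195 in June Jeryak libraries, which overlapped (0.66, adjusted p = 0.19). The let-7b-3p arm had 104, 208 and 182.6 in December yak and 36.3, 114 and 34.9 in June yak libraries, which overlapped (1.57, adjusted p = 0.072). The let-7i-3p arm, at 0 to 77.8, had a log2 fold change of -0.03 in Jeryak and -1.18 in yak.

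The miR-30 family had 4 entries, all tested. In Jeryak 1 of the 4 fell between months (miR-30f-3p), against 28.9% of all entries and 5.58% of cattle-named entries. In yak 1 fell (miR-30d-3p), against 22.6% and 7.17%. Each count is 1 entry, near the share of all entries and above that of cattle-named entries. The miR-30e-3p arm had 482, 347 and 320 in December Jeryak and 196, 96.4 and 154.7 in December yak libraries, without overlap (1.39, SE 0.54, adjusted p = 0.19). Of the 3 arms with the seed TTTCAGT, miR-30a-3p and miR-30e-3p passed in no comparison.

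Of the 7 entries from the miR-17–92 cluster and its relatives, among them the separate cluster of miR-106b, miR-93 and miR-25, 4 were tested and none passed in any comparison. Those tested included miR-106b-3p (284, 396 and 244 in December Jeryak, against 340, 768 and 624 in June Jeryak libraries) and miR-92a-3p (49.6, 112 and 37.9 against 39.7, 21.1 and 7.40). Of all entries, 11.9% were higher and 28.9% lower between months in Jeryak, and 11.5% and 22.6% in yak. Between breeds 5.0% passed in June and 5.97% in December, and 5.48% passed for the difference. With 4 entries tested, nothing is concluded about these clusters. The list called stromal and endothelial held 6 entries: miR-27a-3p, miR-27a-5p, miR-27b-5p, miR-125a-3p, miR-125b-3p and miR-143-5p. Of these, 5 were tested and 1, miR-27a-3p, rose in Jeryak, against 11.9% of all entries and 19.9% of cattle-named entries. Whether the list marks a cell type in milk was not tested. The others of that group included miR-125b-3p, at 39.6 to 208, and miR-27a-5p, at 0 to 118. Of the 4 immune cell entries only miR-146b-3p was tested (0 to 27.4), with miR-181c-3p (0 to 40.0) and miR-342-5p (0 to 5.84) below the limit. Of the 3 entries of the imprinted DLK1-DIO3 cluster only miR-409-3p was tested (0 to 17.3), with miR-136-3p (0 to 19.4) and miR-382-3p (0 to 12.3) below it, and none passed. The single muscle, liver and neural entry, miR-218, and the single entry of the bovine miR-2284 family were above 0 in 4 libraries each and were not tested. None of the 63 was on the epithelial or blood cell lists.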

How the data were processed

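Small RNA of milk exosomes was read from 1 table of 12 libraries. The deposited signal values came from the authors' pipeline: after removal of adapters, low-complexity reads, structural RNA and repeats, ACGT101-miR matched reads to miRBase precursors and multiplied the copies of each sequence by 1 correction factor per library (norm value). Among values up to 20 times the most common value of a library, 14.8 to 25.1% were whole multiples of it (within 0.02), so reads were not recovered and no count test was run. For 1 line no result is reported.

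All 2263 entries were read, and the 620 that reached a norm value of 10 in 3 or more libraries were fitted as log2(norm value + 1) with limma 3.58.1 in R 4.3.3 (trend, 4 group means, all 12 libraries, two-sided, Benjamini-Hochberg over the 620), which was first tested on simulated data. Arms were paired with RNAduplex of ViennaRNA 2.7.2, and tables were handled with Python 3.11.15 and pandas 2.3.3. Replicate numbers were not used as a block in the reported fit.

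The entries, lists and tests were chosen with earlier results of these data known. The entries named are the 8 highest, up to 5 per comparison and direction with the smallest p among those that passed (otherwise the 1 with the smallest p), the 3 highest and 3 lowest arm ratios, up to 3 of each list, those nearest the choice of 2 libraries, and the shortest and longest. The miR-103-5p label in the plot of arm levels, and miR-324-3p, miR-136-3p and miR-18b-3p among the arms above their partners, were named after their values were seen.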

Additional observations from a re-analysis of the deposited data

How the results depend on the processing

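No direction turned in the 17 single-entry results followed under the alternatives that could be run, although the change of let-7g-3p in Jeryak was 0 with values raised to the common floor, and miR-140-5p, miR-27a-3p, miR-148a-5p and miR-30f-3p in Jeryak kept their calls in all 18. Counts of goat-named entries that passed changed as follows. In Jeryak between months, 8 became 4 with no minimum norm value, and leaving out 1 library gave 5 to 12. In yak between months, 3 became 0 with values raised to the common floor, an alternative chosen after seeing the data, and leaving out 1 library gave 2 to 6. Between breeds in June, 0 became 1 with a pseudocount of 10 and 1 with the common floor (0 to 1 without 1 library, 1 being without June yak replicate 1). Between breeds in December, 0 became 2 with library totals, 2 with only these 2 groups in the fit and 1 with the common floor (0 to 2 without 1 library, above 0 without December Jeryak replicate 3 or any 1 of the June libraries). For the difference of the breed contrast between months, 0 became 1 with the common floor (0 to 1 without 1 library, 1 being without June Jeryak replicate 2). Same-numbered libraries, taken as deviations from their group means, had r of -0.062 to 0.14. With no libraries of known shared animals beside them, these values cannot show whether the numbers mark the same animals. With the replicate block 11 entries passed in Jeryak, 4 in yak, 1 between breeds in December, 0 in June and 0 for the difference. The summed share in June Jeryak was 1.17% when predicted candidates were left out of the total. Detected entries averaged 38.7 in December Jeryak at a norm value of at least 5, and at the common floor 24.3 in December Jeryak, 21.7 in December yak and 23.7 in June Jeryak. The median log2 ratio of the arms was -4.88, and -3.40 with a pseudocount of 10. With 3 libraries a group and steps that differ between groups, values under 16.5 cannot be compared firmly.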
